A study of Mus musculus with 4 samples.

Results

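The genes described here are 10 that are used to identify proprioceptors and other large-fibre sensory neurons, measured in mouse dorsal root ganglia: Pvalb, Calb1, Calb2, Runx3, Etv1, Esrrg, Shox2, Chodl, Heg1 and Whrn. They were picked by symbol with results of these same arrays known, and all 22 probe sets whose annotated symbols include one of them were taken, of 45101 on the array, which name 19324 genes in all. Where a gene has several, they are numbered from the highest mean intensity down (Calb1 1 to 4). The 3 probe sets of Etv1 also carry the symbol Gm5454 and cannot be assigned to Etv1 alone. Because the difference between the levels was known when the genes were picked, that difference is given here as a description of these arrays, with no p-value for any of the 10 genes.

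The ganglia were freshly dissected, and their total RNA was measured on 4 Affymetrix mouse arrays. The titles call 2 arrays sample-2 and 2 sample-1, each followed by le1 or le2, and do not say what le means. Here sample-2 and sample-1 were taken as the 2 levels of the ganglia, and le1 and le2 as array numbers. Neither level is named, and if le1 and le2 were the levels, the groups would change. The strain, age, sex and number of mice, and whether ganglia were pooled, are not stated in the labels, nor is any treatment beyond the dissection. Separate animals are not stated for the arrays of a level either, and p-values measure only the spread between arrays, which may be technical. Median intensities lay between 25.9 and 27.3, and every array had been scaled to a common level, so each difference is relative to the other RNA on the array. General markers of sensory neurons were read from a list of 12, chosen with earlier results of these data known. All 12, among them Avil, Isl1 and Pou4f1, passed the filter on low signal. Of these 12, 0 passed the test between the levels (limma, with 1 at an unadjusted p under 0.05). The furthest of these were the sodium channel gene Scn9a, at 0.38 ± 0.09 (log2 difference ± SE), and Pou4f1, at 0.20 ± 0.09. The RNA came from whole ganglia, which also hold glia, vessels and connective tissue, so no value belongs to proprioceptors alone.

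Proprioceptors are the sensory neurons that innervate muscle spindles and tendon organs and report muscle length and force to the spinal cord. They have large cell bodies and thick myelinated axons and depend on the neurotrophin NT-3 and its receptor TrkC. In mouse, Runx3 and Etv1 (also called Er81) are transcription factors needed for the axon projections of these neurons, and Pvalb, the calcium-binding protein parvalbumin, is their most used marker.

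Of the 22 probe sets, 14, from 9 genes, lay above the filter on low signal and entered the fit across the whole table, and the other 8 are given as array values. In that fit, with limma on log2(intensity + 16), 5 probe sets passed an adjusted p of 0.05, 5 lower and 0 higher at the sample-2 level, 1 each for Pvalb, Calb2, Etv1/Gm5454, Esrrg and Shox2. Among all 27022 tested probe sets 0.400% passed that adjusted p as lower and 0.222% as higher. At an unadjusted p under 0.05 there were 7 lower and 2 higher, and the share of all tested probe sets at that threshold was not counted. The 7 include probe set 2 of Shox2, which passed the filter through the sample-1 arrays. Since the genes were picked with this contrast known, nothing is read from these counts. The arrays of the levels did not overlap for 11 of the 22 probe sets with the sample-2 arrays lower and for 4 with them higher, against 18.1% and 19.9% of all probe sets other than controls, and they overlapped for 7. The median difference of the 22 was -0.34 on the log2(intensity + 16) scale, sample-2 minus sample-1 level, against 0.01 for all probe sets other than controls. Without the filter on low signal, or without the intensity trend in the spread, 0 of the 5 passed.

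**Figure D1:**
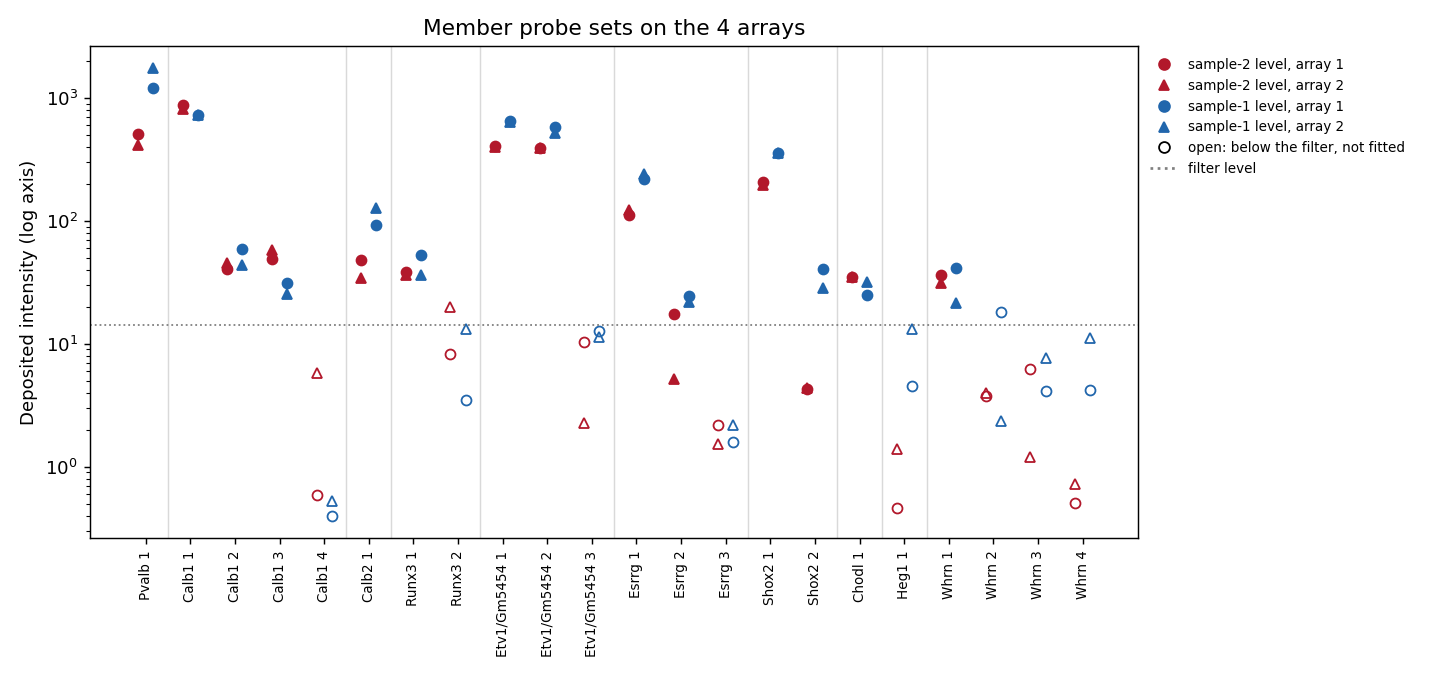
Deposited intensity (log axis) of each of the 22 probe sets on the 4 arrays, sample-2 level in red and sample-1 level in blue, with array 1 as circles and array 2 as triangles. Open symbols are probe sets below the filter on low signal, whose level is the dotted line at 14.3. Among the 14 filled probe sets, 8 lie lower on both sample-2 arrays (Pvalb, Calb2, and 2 each of Etv1/Gm5454, Esrrg and Shox2) and 3 lie higher (Calb1 1, Calb1 3 and Chodl). Of all tested probe sets 21.1% lie higher on both. The share of tested probe sets that lie lower was not counted, and of all probe sets other than controls it is 18.1%. Esrrg 2 and Shox2 2 have sample-2 means below the dotted line and passed the filter through the sample-1 arrays. The genes were picked with this contrast known, so nothing is read from the counts.

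Among the transcription factors, probe set 1 of Etv1/Gm5454, of Shox2 and of Esrrg was lower at the sample-2 level, and Runx3 showed no separation. Etv1/Gm5454 probe set 1 measured 411 and 397 on the sample-2 arrays, against 657 and 639.5 on the sample-1 arrays. The arrays of a level lay within 0.05 of each other on the log2(intensity + 16) scale, and the levels differed by -0.66 ± 0.09 (log2 difference ± SE, 2 arrays per level), a ratio of means of 0.623. Probe set 2, annotated with the same transcript record, measured 393 and 395 on the sample-2 arrays, against 582 and 517 on the sample-1 arrays. Its difference of -0.46 ± 0.10 had the same direction and did not pass. Probe set 3 stayed below the filter, at 10.4 and 2.26 on the sample-2 arrays, against 12.8 and 11.3 on the sample-1 arrays.

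Shox2, a homeobox factor that in mouse is needed to form the mechanoreceptors that carry the receptor TrkB, was lower at the sample-2 level with its brighter probe set. Probe set 1 of Shox2 measured 209 and 198 on the sample-2 arrays, against 355 and 361 on the sample-1 arrays, a ratio of means of 0.568 and a difference of -0.77 ± 0.11. Probe set 2 measured 4.25 and 4.33 on the sample-2 arrays, against 40.4 and 28.5 on the sample-1 arrays. The sample-2 values lie below the filter level of 14.3, so this probe set entered the fit through the sample-1 arrays and had to differ. Its fitted difference of -1.30 ± 0.27, which did not pass, depends on the pseudocount, no ratio is given, and it adds no second measurement of the difference. Ntrk2, which encodes TrkB, measured 596 and 716 on the sample-2 arrays with its brightest probe set, against 464 and 469 on the sample-1 arrays, a difference of 0.47 ± 0.11 that did not pass (adjusted p = 0.0784, limma). Of the 6 tested Ntrk2 probe sets 4 were higher on both sample-2 arrays, 1 was lower on both and 0 passed.

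Esrrg, an orphan nuclear receptor of the estrogen-related family, known also as a marker of gamma motor neurons, was measured by 3 probe sets. Probe set 1 of Esrrg read 112 and 123 on the sample-2 arrays, against 218 and 243 on the sample-1 arrays, a difference of -0.88 ± 0.13 and a ratio of means of 0.511. It no longer passed without sample-1 array 2. Probe set 2 read 17.4 and 5.15 on the sample-2 arrays, against 24.4 and 21.9 on the sample-1 arrays. Its difference of -0.56 ± 0.29 is smaller than the gap of 0.66 between the sample-2 arrays themselves, whose mean of 11.3 lies below the filter level. Probe set 3 read between 1.53 and 2.19 on all 4 arrays.

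Runx3 was dim on these arrays. Its probe set 1 measured 38.8 and 36.4 on the sample-2 arrays, against 52.7 and 36.2 on the sample-1 arrays, so the levels overlapped, and the difference was -0.16 ± 0.21. That sign depends on 1 array, since without sample-1 array 1 the difference was 0.04. Probe set 2 of Runx3 stayed below the filter, at 8.23 and 19.8 on the sample-2 arrays and 3.52 and 13.2 on the sample-1 arrays. Cbfb, the shared partner subunit of the RUNX factors, measured 2878 and 2717 on the sample-2 arrays, against 2847 and 2743 on the sample-1 arrays, a difference of 0.00 ± 0.07.

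RUNX and ETS factors bind short DNA cores, so the windows from 250 bases before to 50 after each annotated start (RefSeq, GRCm38.p6) were searched on both strands for TGTGGT (RUNX), CCGGAA (ETS) and TCAAGGTCA (the element of estrogen-related receptors). The table held 14 windows for 8 of the 10 genes. The RUNX core was in 2 windows, of Runx3 and Etv1, against 16.8% of all 32851 windows. The ETS core was in 1, of Pvalb, against 14.9%, and the receptor element in 0, against 0.423%. No match overlapped a match to another motif. The windows of Pvalb and Etv1 are shown because a probe set of each gene was lower and each window holds the core of a factor among the 10 genes. They are printed in the direction of transcription with the match in capitals, Pvalb from chr15:78206351-78206650 (minus strand) and Etv1 from chr12:38779832-38780131 (plus strand). A match describes these letters and is not a binding site, and no link between a factor and a gene was tested.
Pvalb: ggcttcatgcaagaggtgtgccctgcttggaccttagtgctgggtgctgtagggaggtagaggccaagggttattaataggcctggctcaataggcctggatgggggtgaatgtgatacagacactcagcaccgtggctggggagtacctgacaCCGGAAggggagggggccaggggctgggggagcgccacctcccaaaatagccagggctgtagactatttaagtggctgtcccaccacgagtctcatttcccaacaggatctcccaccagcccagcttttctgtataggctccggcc
Etv1: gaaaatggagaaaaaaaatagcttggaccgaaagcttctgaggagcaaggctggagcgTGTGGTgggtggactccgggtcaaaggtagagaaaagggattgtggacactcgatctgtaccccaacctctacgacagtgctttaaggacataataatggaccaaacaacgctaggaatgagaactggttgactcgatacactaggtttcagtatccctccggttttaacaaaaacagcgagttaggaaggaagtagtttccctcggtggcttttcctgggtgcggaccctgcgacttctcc

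Of the 3 calcium-binding proteins, which share the EF-hand fold and buffer calcium in neurons, parvalbumin and calretinin were lower at the sample-2 level, and calbindin was not. Pvalb measured 508 and 415 on the sample-2 arrays, against 1217 and 1751 on the sample-1 arrays, a difference of -1.64 ± 0.15 and a ratio of means of 0.311. The gap between arrays of a level was 0.28 at the sample-2 level and 0.52 at the sample-1 level on the same scale, each below the difference between levels. In bulk ganglia, fewer cells of a type and less RNA per cell cannot be told apart, here or for the other genes. In the 4 fits that left out 1 array the Pvalb difference ran from -1.90 to -1.38. These fits share arrays, so the range is a description and adds no test.

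Calb2, which encodes calretinin, measured 47.9 and 34.0 on the sample-2 arrays, against 93.4 and 128 on the sample-1 arrays. The difference was -1.15 ± 0.20 and the ratio of means 0.369. The levels did not overlap, but the arrays of each level differed by 0.35 and 0.40 on the log2(intensity + 16) scale, and Calb2 no longer passed when array 2 of either level was left out.

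Calb1, which encodes calbindin, had 4 probe sets that differed in direction. Calb1 probe set 1 measured 885 and 817 on the sample-2 arrays, against 723 and 725 on the sample-1 arrays, a difference of 0.23 ± 0.09. Probe set 3 measured 48.6 and 58.2 on the sample-2 arrays, against 31.0 and 25.6 on the sample-1 arrays, a difference of 0.65 ± 0.20. These 2 lay higher on both sample-2 arrays, and neither passed. Probe set 2, annotated with the same source sequence as probe set 1, measured 40.8 and 45.4 on the sample-2 arrays, against 58.7 and 43.4 on the sample-1 arrays, and overlapped (-0.17 ± 0.20). Probe set 4 lay below 6 on every array. The direction of Calb1 is therefore not the same for all of its probe sets.

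**Figure D2:**
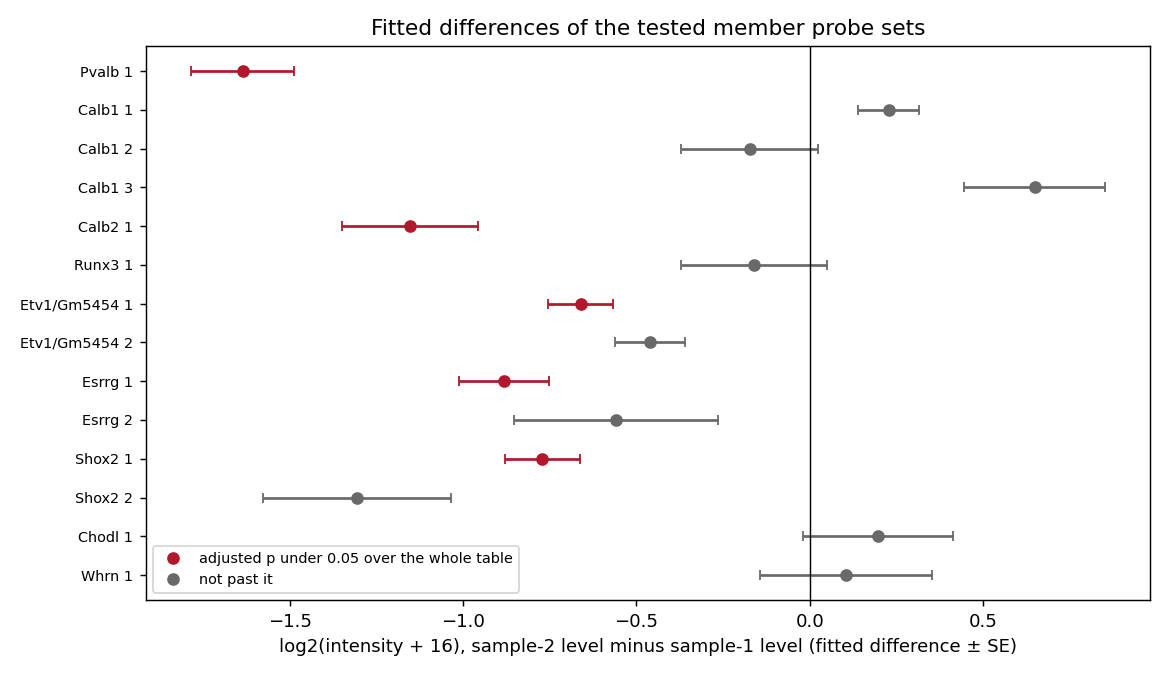
Fitted log2(intensity + 16) difference ± SE, sample-2 level minus sample-1 level, of the 14 probe sets above the filter, with those past an adjusted p of 0.05 in red. Pvalb has the most negative difference, at -1.64, and Calb1 3 the most positive, at 0.65.

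The 3 remaining genes encode proteins of the cell surface or the cytoskeleton. Chodl, a membrane protein with a C-type lectin domain known from motor neurons, measured 34.7 and 34.8 on the sample-2 arrays, against 25.0 and 31.8 on the sample-1 arrays. The levels did not overlap, but the difference of 0.20 ± 0.22 is no larger than its SE. Whrn, the scaffold protein whirlin of hair-cell stereocilia, had 1 of 4 probe sets above the filter. It measured 36.4 and 31.2 on the sample-2 arrays, against 41.4 and 21.3 on the sample-1 arrays, and the sample-2 values lay between the sample-1 values. The 3 other Whrn probe sets ranged from 0.509 to 6.23 on the sample-2 arrays and from 2.37 to 18.0 on the sample-1 arrays. Heg1, a receptor of the endothelium and heart that binds KRIT1, measured 0.458 and 1.40 on the sample-2 arrays, against 4.50 and 13.1 on the sample-1 arrays, all below the filter level. No detection calls were used, so whether Heg1 and the dim Whrn probe sets were above background is unknown, and no ratio is given.

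Markers of other tissues were read on the same arrays because several of these genes are also made outside sensory neurons. Pvalb is abundant in fast skeletal muscle. The summed intensity of 25 skeletal muscle markers was 2909 and 1866 on the sample-2 arrays, against 2552.5 and 11818 on the sample-1 arrays. Of the 25 markers, 22 were higher on sample-1 array 2 than on sample-1 array 1, with a median gap of 1.59, while the gap of Pvalb was 0.52. On sample-1 array 1, where the muscle sum lay between those of the sample-2 arrays, Pvalb measured 1217, a ratio of 2.64 to the sample-2 mean, and its difference in the fit without sample-1 array 2 was -1.38. Single markers were not all alike there, since 15 of the 25 were higher on sample-1 array 1 than their sample-2 mean, with a median gap of 0.21, against a gap of 1.38 for Pvalb. In the fit of all 4 arrays 2 of 24 tested muscle markers passed, both lower. Smpx, a small protein of striated muscle, measured 62.6 and 44.4 on the sample-2 arrays, against 148 and 223 on the sample-1 arrays (adjusted p = 0.00628, limma), and of all tested genes outside the 10 its profile over the 4 arrays was the nearest to that of Pvalb. Myh2, a fast myosin heavy chain, measured 2.16 and 11.7 on the sample-2 arrays, against 42.8 and 119.6 on the sample-1 arrays. Its sample-2 values lie below the filter level, so it entered the fit through the sample-1 arrays, its difference ran from -3.52 to -0.98 with the pseudocount, and nothing is read from its call. Leaving out sample-1 array 1 put 19 past the threshold, and leaving out sample-1 array 2 or array 1 of the other level put 1 past it. Between the sample-1 arrays Calb2 differed by 0.40, higher on array 2 as the muscle markers were, and Etv1/Gm5454 1, Shox2 1 and Esrrg 1 differed by 0.04, 0.02 and 0.15.

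**Figure D3:**
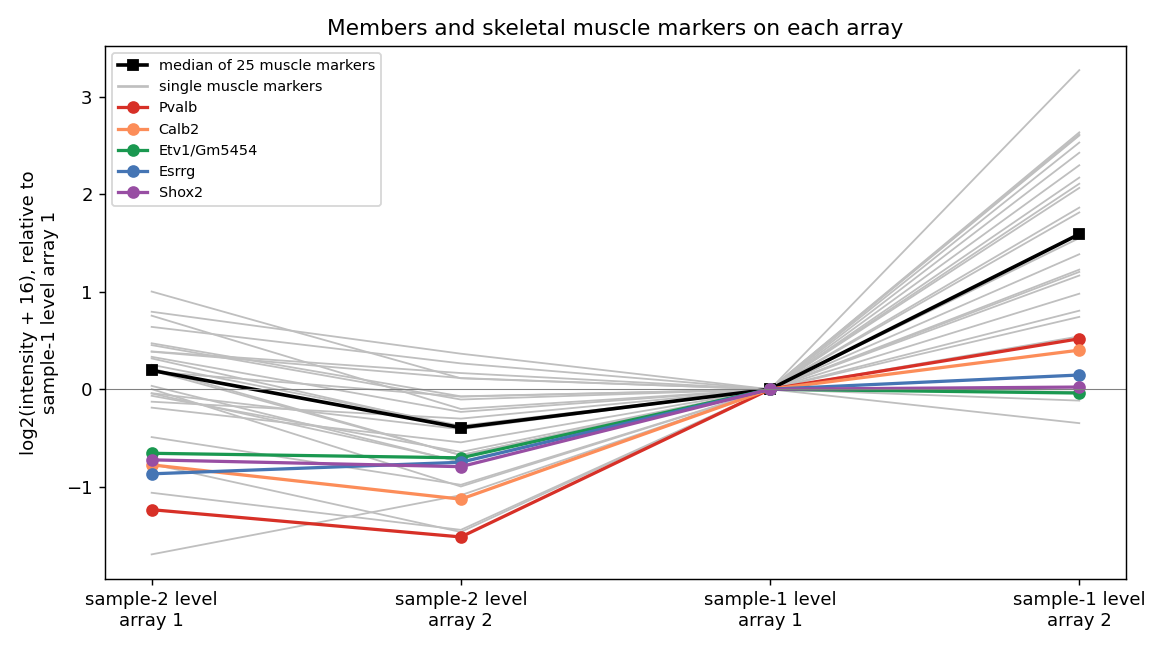
Level on each array as log2(intensity + 16) relative to sample-1 array 1, with sample-2 arrays to the left, for the 5 probe sets that passed (colours), the single muscle markers (grey) and their median (black). Lines join the values of 1 probe set and imply no order among arrays. The muscle median is 1.59 higher on sample-1 array 2 than on sample-1 array 1, while Pvalb lies 1.38 below sample-1 array 1 on average over the sample-2 arrays.

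Markers of connective tissue and of Schwann cells were also lower at the sample-2 level. The sum of 12 fibroblast and meningeal markers was 9805 and 9030.5 on the sample-2 arrays, against 16765 and 14426 on the sample-1 arrays, and 6 of the 12 were lower past the threshold, among them Ptgds, a prostaglandin D synthase of the meninges (difference -1.17 ± 0.08, adjusted p = 9.37e-05, limma). Leaving out sample-1 array 1 put 2 of them past it, and leaving out sample-2 array 2 put 3. The sum of 9 Schwann cell and myelin markers was 19927 and 15552 on the sample-2 arrays, against 22294 and 20208.5 on the sample-1 arrays, and 2 of the 9, Pmp2 and Ugt8a, were lower past the threshold, with 1 to 4 past it when an array was left out. Of 10 endothelial markers 0 passed (limma, with 1 at an unadjusted p under 0.05), with the furthest, Kdr and Cdh5, at -0.41 ± 0.22 and -0.32 ± 0.22. Of 13 motor neuron and spinal cord markers 6 were above the filter and 0 passed (limma, with 1 at an unadjusted p under 0.05), and the cholinergic genes Chat, Slc18a3 and Slc5a7 and the motor neuron factor Mnx1 stayed below it, at 0.968 to 15.0. The furthest of those 6 were Opalin, an oligodendrocyte protein, at -0.39 ± 0.30, and Gfap, the intermediate filament of astrocytes, at -0.24 ± 0.31. These 2 were the only ones below 0. Isl2, the 1 at an unadjusted p under 0.05, lay above 0, at 0.23 ± 0.10. No deposited value was 0. What part any of these tissues had in the values of the 10 genes was not tested.

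Other genes of large myelinated sensory neurons came from a list of 26, chosen with earlier results of these data known. The 23 tested genes were compared by the probe set of each gene with the highest mean. Their counts and p-values therefore describe these arrays and give no independent support. Of the 23, 3 fell and 0 rose past the threshold, with a median difference of -0.21, against 0.00 for all tested probe sets, of which 0.400% were called lower. Hapln4, a link protein of the perineuronal matrix, measured 82.0 and 110.2 on the sample-2 arrays, against 185 and 169 on the sample-1 arrays (-0.79 ± 0.15, adjusted p = 0.0461, limma). Asic1, an acid-sensing channel, fell by 0.67 ± 0.12 (adjusted p = 0.0355, limma) and Cntnap2, which clusters potassium channels next to the nodes of Ranvier, by 0.50 ± 0.10 (adjusted p = 0.0474, limma). With each array centred on its median the number that fell was 0. With an array left out, the difference ran from -0.98 to -0.61 for Hapln4 and from -0.73 to -0.60 for Asic1. For Cntnap2 it ran from -0.59 to -0.40. The calls of these 3 genes did not hold in all of these fits, and that of Asic1 held in none.

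Over all 58 tested probe sets of these genes, 8 from 6 genes fell and 0 rose past the threshold. Beside the 3 genes above these came from Ldhb, a lactate dehydrogenase subunit, with 3 of 4 probe sets (all 4 at differences from -0.50 to -0.33), from Vsnl1, a neuronal calcium sensor, with 1 of 2 (at -0.52 and -0.31), and from Kcnc1, a fast potassium channel, with 1 of 3 (at -0.99 to -0.05). The probe set with the highest mean log2 level of each of these 3 did not pass. Other genes of the list did not pass with any probe set, and those described next were named with their values known. Ntrk3, which encodes the NT-3 receptor TrkC, had 6 tested probe sets with differences from -0.45 to 0.09. Of these 6, 3 were lower on both sample-2 arrays, 0 were higher on both and 0 passed. The Ntrk3 probe set with the highest mean measured 96.0 and 83.7 on the sample-2 arrays, against 102 and 73.2 on the sample-1 arrays. Its levels overlapped, with a difference of 0.04 ± 0.17. Nefh, the heavy neurofilament of thick axons, measured 5331 and 4506 on the sample-2 arrays, against 5637 and 5746 on the sample-1 arrays (-0.22 ± 0.08, adjusted p = 0.302, limma). Nefm and Nefl, the medium and light chains, differed by 0.04 ± 0.06 and -0.01 ± 0.06. Pou4f3, a POU factor found in a subset of proprioceptors, differed by 0.06 ± 0.17.

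Relatives and partners of the 10 genes made up a list of 20, with 13 tested, of which 0 passed in either direction (limma, with 3 at an unadjusted p under 0.05). Esrrb and Esrra, the other estrogen-related receptors, differed most in the downward direction. Esrra measured 168 and 203 on the sample-2 arrays, against 232 and 234 on the sample-1 arrays (-0.31 ± 0.13, adjusted p = 0.394, limma). Esrrb differed by -0.52 ± 0.22 (adjusted p = 0.418, limma). Its gap between arrays was 0.45 at the sample-2 level and 0.49 at the sample-1 level. The levels overlapped for the other tested Esrrb probe sets, with differences of -0.36 and -0.06. Etv5, an ETS factor of the same subfamily as Etv1, measured 600.1 and 510.1 on the sample-2 arrays, against 549 and 551 on the sample-1 arrays, a difference of 0.01 ± 0.10. Runx1, the RUNX factor of nociceptors, measured 287 and 327 on the sample-2 arrays, against 244 and 248 on the sample-1 arrays (0.30 ± 0.11, adjusted p = 0.350, limma). Krit1, the partner of Heg1, differed by 0.22 ± 0.13.

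For comparison, all 10 tested genes of a nociceptor list of 15 lay above 0, and all 10 had both sample-2 arrays above both sample-1 arrays, as did 21.1% of all tested probe sets. Of the 10, Trpv1 and Tac1 rose past the threshold, and the median difference of the 10 was 0.31. Tac1 no longer passed when either sample-1 array or sample-2 array 2 was left out, with array medians centred or with a pseudocount of 1, and neither passed without the filter or without the intensity trend. Whether the difference of the 10 large-fibre genes departs from that of any other list was not tested.

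**Figure D4:**
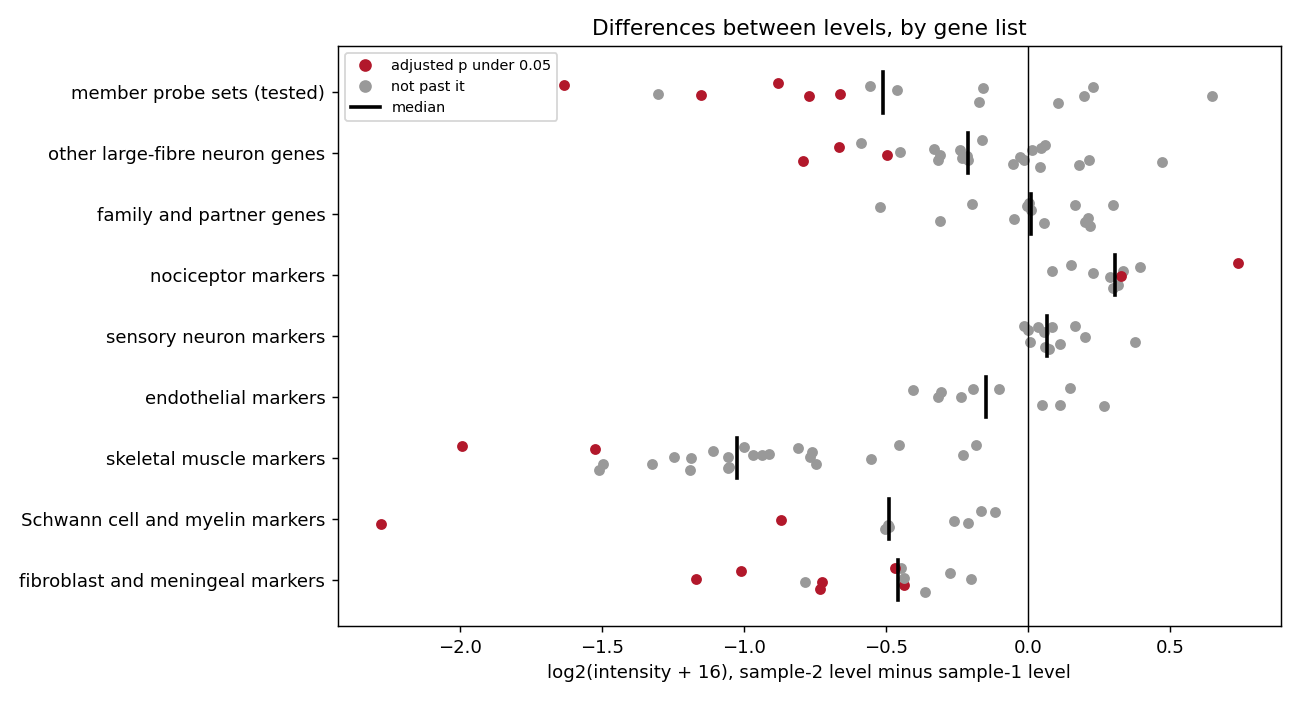
Differences in log2(intensity + 16), sample-2 level minus sample-1 level, for the 14 tested probe sets of the 10 genes and for 1 probe set per gene of 8 other lists. Each point is a probe set, red where it passed an adjusted p of 0.05, and the bar is the median, at -0.51 for the 14, -0.21 for the other large-fibre genes and 0.31 for the nociceptor markers. The 14 are those that passed the filter, so their median is not that of all 22, which is -0.34. Esrrg 2 and Shox2 2 have sample-2 means below the filter level, so they passed it through the sample-1 arrays. The 10 genes were picked with this contrast known, so nothing is read from their median beside those of the other lists.

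Genes with the profile most like Pvalb over the 4 arrays were found by the Euclidean distance between log2(intensity + 16) values centred on each probe set's mean. The 4 nearest were Smpx at 0.133, Ntn5 at 0.326, Vstm2b at 0.367 and Trabd2b at 0.441. Vstm2b measured 47.8 and 37.1 on the sample-2 arrays, against 128 and 143 on the sample-1 arrays. That these genes, like Pvalb, were lower on both sample-2 arrays and highest on sample-1 array 2 follows from how they were chosen. Ntn5 and Trabd2b had sample-2 means of 12.9 and 7.89, below the filter level, so they passed it through the sample-1 arrays. The 4 nearest to Shox2 probe set 1 were Crispld2 at 0.0758, Stard7 at 0.0851, Igfbp6 at 0.0859 and Prr15 at 0.105. Crispld2 measured 114 and 112 on the sample-2 arrays, against 215 and 214 on the sample-1 arrays. Stard7, at 10.1 on both sample-2 arrays, also passed the filter through the sample-1 arrays. The distances rest on 4 arrays and are a description.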

How the data were processed

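Each array gives 1 intensity per probe set on a linear scale, the unit in which the authors deposited the values. The software behind them is not given in the sources used here. Trimmed means of 150.0 on all 4 arrays show that they had been scaled to a common level, and that scaling was kept. Log2(intensity + 16) entered linear models in limma 3.58.1 under R 4.3.3 (lmFit and eBayes with an intensity trend), without covariates, after leaving out 64 control probe sets and those with a mean below the 40th percentile, an intensity of 14.3. Adjusted p-values (Benjamini-Hochberg) run over all 27022 probe sets left, and the fit was tested on simulated data. The pseudocount makes differences of dim probe sets smaller than their true ratio. The number of arrays limits the precision.

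Symbols came from the platform annotation. Each of 9 other gene lists was read by the probe set of a gene with the highest mean and 1 symbol, and from each were named up to 4 genes past the threshold with the largest difference, or the 2 with the largest where none passed, besides relatives and partners of the 10. Ntrk2, Ntrk3, the neurofilament genes, Pou4f3, Kcnc1, Ldhb, Vsnl1 and Isl2 were named outside this rule, with their values known. The 10 genes, the lists and the tests were chosen with earlier results of these data known.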

Additional observations from a re-analysis of the deposited data

How the results depend on the processing

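The number of probe sets of the 10 genes that passed as lower, 5, was 0 without the filter on low signal and 0 without the intensity trend, settings under which 4 and 1 of all probe sets passed. It was 5 with quantile-normalized or median-centred arrays, with the filter raised to the 60th percentile, with pseudocounts of 1 and 64 and without probe sets ending in _x_at or _s_at, and 3 to 5 with each array left out in turn, with 3 without sample-1 array 2. The number passing as higher was 0 under all 13 alternatives. Over all tested probe sets 168 passed, against 104 with array medians centred and 102 to 241 with an array left out, with 102 without sample-2 array 2. With the array number as a replicate block 7 of the 14 and 793 of all tested probe sets passed. Arrays with the same number did not deviate together (r = 0.03 across tested probe sets), and the labels give no shared animal or day, so the number is not taken as a pairing. The median difference of the 22 probe sets, -0.34, was -0.70 with a pseudocount of 1 and -0.12 with 64, and -0.40 to -0.23 with an array left out. With an array left out Runx3 probe set 1 spanned -0.36 to 0.037, being above 0 when sample-1 array 1 was omitted, and Whrn probe set 1 spanned -0.21 to 0.42, being below 0 when sample-1 array 2 was. No detection calls were used, so what the dim probe sets can show is unknown. The causes of these changes were not tested.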
